A study of Rattus norvegicus with 8 samples.

Results

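The cells described are neutrophils of low RNA content that carried transcripts of Cxcl2, Il1b and G0s2, taken from single-cell libraries of rat spinal cord after contusion. They were chosen by measured values: at most 10% of unique molecular identifiers (UMIs, each one counted transcript) on mitochondrial genes, 400 to 2500 UMIs in all, at least 5 UMIs of G0s2, Cxcl2 and Il1b together, at least 3 UMIs of S100a8 and S100a9 together but below 12% of all UMIs, and at most 3 UMIs of C1qa, C1qb and C1qc together. The levels of these genes were therefore used for the choice and are given below without a test. The gate held 4491 of 68658 deposited cells, of which 3150 came from injured cords. The study compared 4 groups of female Wistar rats aged 8 weeks, with 2 libraries each: sham, in which the lamina was removed without an impact, and mild, moderate and severe spinal cord injury (SCI), in which a 10 g weight fell 12.5, 25 or 50 mm onto the cord at T9. A 10 mm segment of cord was taken 7 days after surgery and read with 10x Genomics 3' chemistry. No transgene or sort was part of any group, and the rats received the analgesic buprenorphine and the antibiotic cefazolin after surgery. The study speaks of as many cords as libraries, but the labels name no animals, so p-values measure the spread between these libraries, part of which may be technical.

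Neutrophils are short-lived granulocytes that leave the blood for injured tissue, where they recruit further leukocytes and are removed by macrophages. S100a8 and S100a9 form calprotectin, an abundant cytosolic complex of these cells. Cxcl2 is a ligand of the neutrophil receptor Cxcr2, Il1b encodes the cytokine interleukin 1 beta, and G0s2 encodes an inhibitor of the lipase that breaks down lipid droplets. Cxcl2, Cxcl1, Il1b and Tnfaip3 are classical targets of the transcription factor NF-kB. Neutrophils hold little RNA, so their droplets carry few UMIs and RNA set free by other cells weighs more in them than in larger cells.

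The sham libraries stood apart from each other. Sham replicate 1 held 1341 of the gated cells, 12.5% of its 10736 cells that met the mitochondrial limit with at least 400 UMIs, while sham replicate 2 held 0 of 2702 cells, which allows a share of up to 0.111%. In sham replicate 1, 29.7% of cells were neutrophils with at least 12% of UMIs on S100a8 and S100a9, named S100-rich neutrophils below. In sham replicate 2, 87.2% of cells were C1q-positive macrophages or microglia, against 6.52% in sham replicate 1. For this reason sham entered no test of gene expression, and sham replicate 1 is given as values. Libraries shared between 5 and 40 cell barcodes per pair, and no barcode of a gated cell occurred in the gate of another library.

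In the injured libraries the share of gated cells was 13.04% in mild replicate 1, 3.26% in mild replicate 2, 2.89% in moderate replicate 1, 6.29% in moderate replicate 2, 11.9% in severe replicate 1 and 3.93% in severe replicate 2. Replicates of the mild and the severe group thus differed more from each other than the group means did. The mean over injured libraries was 6.88% ± 4.49 (SD, n = 6) and that over the sham libraries 6.25% (n = 2), a difference of 0.632 percentage points (exact two-sided permutation p = 0.964, where no split of these 8 libraries can give less than 0.0357). No relation of the share to the drop height was detectable over all 8 libraries, with Spearman's rho of 0.0488 (exact permutation p = 0.946) and Pearson's r of 0.0665 (exact permutation p = 0.865). Over the 6 injured libraries rho was 0 (exact permutation p = 1) and r was 0.0494 (exact permutation p = 0.911), and each of the 4 p-values became 1 after Benjamini-Hochberg adjustment. Without the 2 severe libraries, whose height lies farthest from the median, r was -0.138 over 6 libraries and -0.437 over 4. Leaving out sham replicate 2 turned the difference between injured and sham cords to -5.61 points.

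**Figure D1:**
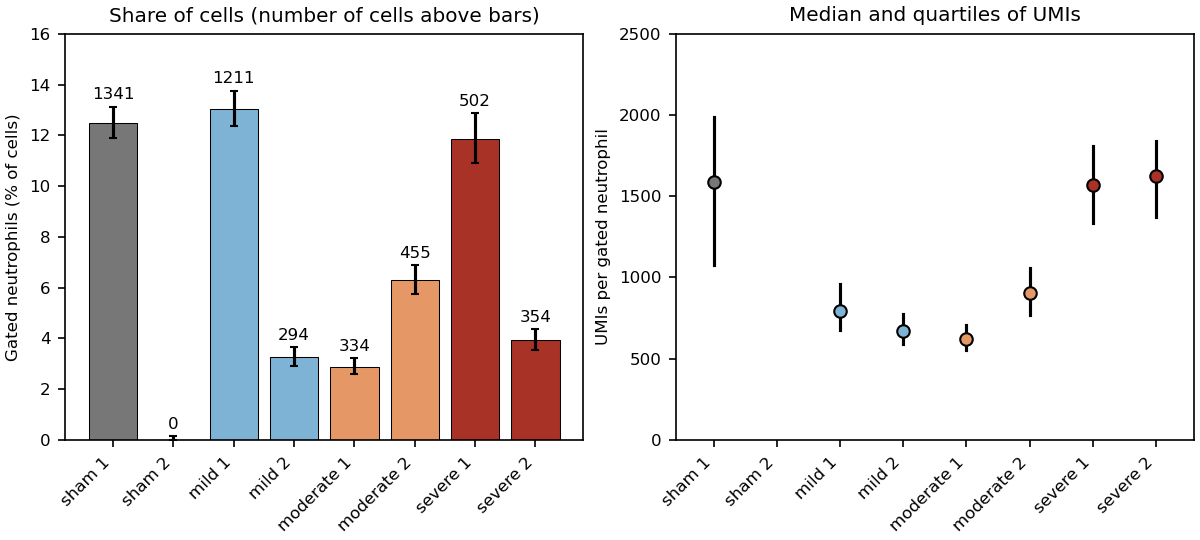
Left, gated neutrophils as percent of cells with at most 10% mitochondrial UMIs and at least 400 UMIs in each library, with Wilson 95% intervals for counting error; the number above each bar is the number of gated cells. Right, median (point) and quartiles (line) of UMIs per gated neutrophil; sham replicate 2 held none, and the medians of sham replicate 1 and both severe libraries lie above 1500 UMIs while the other 4 lie below 1000.

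Depth per gated cell differed between groups. The median was 1585 UMIs in sham replicate 1, 796 and 673 in the mild libraries, 620 and 902 in the moderate libraries, and 1569 and 1622 in the severe libraries. Summed over the gated cells, the libraries held from 215888 UMIs in mild replicate 2 to 2075769 in sham replicate 1. A fixed floor of 5 UMIs is a larger share of a shallow cell than of a deep one, so depth could set part of the gated share in each library. Below, levels are UMI counts scaled to the summed UMIs of the gated cells of a library (CPM, where 10000 CPM is 1% of those UMIs). Reads come from the 3' end, so CPM is not scaled by gene length.

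The gated cells carried neutrophil transcripts beyond those of the gate. After each cell was thinned to 400 UMIs, Il1r2, the decoy receptor of interleukin 1, was found in a mean of 32.4% ± 11.9 (SD, n = 7 libraries) of gated cells and in 0.0848% of T cells. Csf3r, the receptor of granulocyte colony-stimulating factor, was found in 14% ± 4.96 of gated cells and in 0.0424% of T cells, and Clec4d, a C-type lectin receptor, in 20.5% ± 11.7 and 0.0424%. Without thinning the gated shares were 51.9% for Il1r2, 31.7% for Csf3r and 41.3% for Clec4d. Median depth before thinning was 620 to 1622 UMIs in gated cells and 1861 to 4224.5 in T cells of the same 7 libraries. Apoe, a lipid carrier of macrophages and glia, was found in 50.5% of thinned gated cells and 38.0% of thinned T cells, so it is not read as expression of the neutrophils. Mpo and Ltf, granule genes transcribed by precursors in the bone marrow, were at or near 0: Mpo had 0 UMIs in all 7 libraries, and Ltf had 1 UMI in moderate replicate 2 and 0 elsewhere. Other genes of granule formation were present, with Elane at 164 to 362 CPM, Camp at 116 to 353 CPM and Cebpe at 10.6 to 306 CPM. Ms4a2 of mast cells and basophils was at 0, while Siglec5, which the list of eosinophil, basophil and mast cell markers also holds, reached 42.2 to 315 CPM. The neutrophil label therefore fits the markers; a place in tissue rather than in vessels cannot be read from them.

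RNA of other cells was present at a level that differed between libraries. For genes that neutrophils should lack, the gated cells held a median of 14.1% of the level of the whole library in sham replicate 1, 10.5% and 13.5% after mild SCI, 16.2% and 18.8% after moderate SCI, and 2.59% and 6.82% after severe SCI. The 19 macrophage markers, all measured and led by Apoe, summed to 2404 CPM in sham replicate 1, 7074 and 8903 CPM after mild SCI, 14157 and 23636 CPM after moderate SCI, and 5288 and 6088 CPM after severe SCI. The 8 myelin markers summed to 3179 CPM in sham replicate 1, 841 and 1413 CPM after mild SCI, 1061 and 371 CPM after moderate SCI, and 110 and 460 CPM after severe SCI. The 5 measured erythroid markers, led by Hba-a2, reached 647 CPM in sham replicate 1 and 1016 CPM in severe replicate 2, and at most 52.0 CPM in the other 5 libraries. Of the macrophage, myelin and erythroid markers, 0 passed 3 times the level that free RNA could give in every injured library. That level was itself set by the median ratio of these and other such markers. The count thus follows in part from the definition and gives no separate support. The levels of these markers are not read as expression of the neutrophils, and their part in other results was not tested. Their sums did not follow one order over the libraries. Of the markers of other cell types, those of monocytes and dendritic cells, led by Cst3, summed to 104 to 1246 CPM, platelets (Pf4) to 28.2 to 131 CPM and 1039 CPM in sham replicate 1, fibroblasts (Mgp) to 35.2 to 209 CPM and 1068 CPM in sham replicate 1, dividing cells (Stmn1) to 36.8 to 175 CPM, T cells (Ccl5) to 2.54 to 116 CPM, astrocytes (Aldoc) to 3.804 to 83.3 CPM, endothelial cells (Cldn5) to 0 to 23.1 CPM and B cells (Cd79b) to 0 to 9.66 CPM. Of the 4491 gated cells, 1149 carried at least 3 UMIs of another cell type's markers or over 2% erythroid UMIs, 1046 of them in sham replicate 1.

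Among the genes of the gate, Cxcl2 was at 13488 CPM in sham replicate 1, 12000 and 13757 CPM after mild SCI, 17716 and 15634 CPM after moderate SCI, and 70706 and 32202 CPM after severe SCI. Both severe libraries lay above all the others, and the moderate libraries above the mild by a smaller step. Il1b was at 3151 CPM in sham replicate 1, 2295 and 3557 CPM after mild SCI, 5907 and 10122 CPM after moderate SCI, and 27394 and 18543 CPM after severe SCI, and the injured groups did not overlap. Over injured libraries, Cxcl2 averaged 13796 CPM in cells of 500 to 700 UMIs and 40305 CPM in cells of 1500 to 2500 UMIs. Il1b averaged 5554 and 16524 CPM in these bins, which drew on different libraries. The part of depth in the order of the groups was not tested. G0s2 was at 6491 CPM in sham replicate 1, 12359 and 11460 CPM after mild SCI, 13577 and 29075 CPM after moderate SCI, and 20975 and 18142 CPM after severe SCI, where moderate and severe overlapped. S100a9 was lowest in the severe libraries, at 20064 and 23598 CPM, and ranged from 28299 to 38500 CPM in the other 5. S100a8 ranged from 5603 CPM in moderate replicate 2 to 13936 CPM in mild replicate 1, and its groups overlapped.

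Ccl6 and Lrg1, a chemokine and a secreted glycoprotein of granulocytes, were not part of the gate and were also abundant in S100-rich neutrophils, with means of 6612 CPM for Ccl6 and 2910 CPM for Lrg1. Against those cells Lrg1 differed by 0.22 ± 0.28 and Ccl6 by 0.39 ± 0.50 on the log2(CPM + 10) scale (SD, n = 7 libraries). Lrg1 varied least, from 2648 CPM in moderate replicate 2 to 4043 CPM in severe replicate 2. Ccl6 ranged from 2593 CPM in severe replicate 1 to 11732 CPM in mild replicate 1, and the severe libraries, at 2593 and 10468 CPM, spanned almost the whole range. Neither gene passed the test between any 2 injured groups.

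The promoters of the gate chemokine Cxcl2, of its neighbour ligand Cxcl1 and of the NF-kB inhibitor Tnfaip3 are printed because Cxcl1 and Tnfaip3 rose with Cxcl2 in the severe libraries, as given below, and all 3 hold a core of NF-kB sites, searched as 3 G, any 2 bases, 3 T and 2 C in a row. The sequences are RefSeq's on GRCr8, 250 bases before to 50 after the start of the gene, on the strand of the gene, with matches on either strand in capitals: Cxcl2 at chr14:17467206-17467505, Cxcl1 at chr14:17479272-17479571 and Tnfaip3 at chr1:15543930-15544229, all on the minus strand.
Cxcl2: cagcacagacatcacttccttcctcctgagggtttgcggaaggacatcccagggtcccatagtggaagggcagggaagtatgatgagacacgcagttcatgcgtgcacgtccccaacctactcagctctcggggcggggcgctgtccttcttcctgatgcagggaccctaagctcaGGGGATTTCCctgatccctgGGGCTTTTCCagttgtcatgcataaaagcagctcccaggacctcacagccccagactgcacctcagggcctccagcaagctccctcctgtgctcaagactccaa
Cxcl1: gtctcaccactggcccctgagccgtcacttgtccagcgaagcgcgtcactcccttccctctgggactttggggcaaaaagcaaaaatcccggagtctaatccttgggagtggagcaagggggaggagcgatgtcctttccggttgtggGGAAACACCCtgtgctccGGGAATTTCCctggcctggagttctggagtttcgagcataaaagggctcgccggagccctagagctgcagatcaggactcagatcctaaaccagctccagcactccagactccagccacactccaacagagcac
Tnfaip3: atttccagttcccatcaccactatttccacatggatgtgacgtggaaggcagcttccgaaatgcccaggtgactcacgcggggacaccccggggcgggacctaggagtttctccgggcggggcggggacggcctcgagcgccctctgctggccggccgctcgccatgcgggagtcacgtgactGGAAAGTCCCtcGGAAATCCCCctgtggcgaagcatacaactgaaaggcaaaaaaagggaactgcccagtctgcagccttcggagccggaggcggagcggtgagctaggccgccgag
Each of the 3 held 2 matches, none overlapping, which began 74 and 54 bases before the start in Cxcl2, 102 and 84 in Cxcl1, and 67 and 55 in Tnfaip3. The promoters of Il1b and G0s2, also genes of the gate, held 0 matches. The letters occurred in 512 of 33469 promoters of this length (1.53%) and in 11 of the 28 promoters found for the 36 genes of the chemokine and NF-kB feedback lists. Of the 9 genes of these lists that were higher in severe than in mild SCI, 6 had a promoter in the table and 3 of these held a match. A match describes these letters in this window and is not a measured binding site.

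Apart from ribosomal and mitochondrial genes, an unnamed clone-type gene was the most abundant, at 77670 to 161330 CPM, followed by Fth1, the heavy chain of ferritin, at 30273 CPM ± 11234 (SD, n = 7 libraries). Then came S100a9, Cxcl2, the actin-binding peptide Tmsb4x at 16304 CPM ± 4642, G0s2, the protease inhibitor Slpi at 12857 CPM ± 4522, lysozyme (Lyz2) at 11755 CPM ± 7532, the histone gene H3f3a and S100a8. Ccl3, a chemokine for monocytes and neutrophils, followed at 10502 CPM ± 8036, with Il1b, the ferritin light chain Ftl1, the signalling adaptor Tyrobp, and the NF-kB inhibitor Nfkbia at 8228 CPM ± 3684. Ccl6, the ubiquitin gene Ubb, B2m of MHC class I, the granule proteoglycan Srgn and the transcription factor Cebpb closed the 20 highest. Slpi fell into a high set, sham and mild at 14994 to 18815 CPM, and a low set, moderate and severe at 9030 to 9805 CPM, yet it did not pass the test of severe against mild (log2 fold change -0.63, edgeR adjusted p = 0.29).

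Against all other cells of the same libraries the 15 genes whose smallest excess in any library was largest were, in order, G0s2, Clec4e, Cxcl3, Il1r2, Cxcl2, Il1rn, Il1b, Ccl6, Csf3r, 2 genes with LOC names, Lrg1, Ets2, Elane and Clec4d. Clec4e, the lectin receptor Mincle, averaged 454 CPM against 20.9 CPM in other cells, and its smallest excess in any library was 3.44 on the log2(CPM + 10) scale. Il1rn, the interleukin 1 receptor antagonist, averaged 1013 CPM against 65.6 CPM, with a smallest excess of 3.22. Elane, neutrophil elastase, was at 164 to 362 CPM in the gated cells, against a mean of 6.64 CPM in other cells. These values follow from a choice made on the cells themselves and carry no test.

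Among neutrophils, the gated cells were set against the S100-rich ones of the same library. Genes were ranked by their smallest difference in any of 7 libraries, so a direction shared by all 7 follows from the ranking. Among the 15 ranked lowest were Retnlg, a resistin-like granule gene, by 4.59 ± 1.67 on the log2(CPM + 10) scale (SD, n = 7 libraries; 331.9 CPM at most in 6 libraries and 654 CPM in severe replicate 2), S100a9 and S100a8 of the gate, the collagenase Mmp8 by 2.70 ± 0.90, the bactericidal protein Pglyrp1 by 1.96 ± 0.78, the cathelicidin Camp by 2.57 ± 2.24, haptoglobin (Hp) by 2.20 ± 1.17 and the iron scavenger Lcn2 by 3.02 ± 2.41. Over the 3 libraries with at least 100 S100-rich cells, the mean difference was -1.29 for Lcn2 and -1.77 for Camp. Lcn2 had 0 UMIs in mild replicate 2 and moderate replicate 1. Among the 15 ranked highest were Csf1, the macrophage growth factor, by 1.70 ± 0.70, Gpnmb by 1.65 ± 0.83, the ubiquitin ligase Neurl3 by 1.25 ± 0.39, Pmaip1, which encodes the pro-apoptotic protein NOXA, by 1.22 ± 0.60, and the stress gene Gadd45b by 1.44 ± 1.01, or by 0.94 over the same 3 libraries. Gpnmb is also a macrophage gene, and its level reached no more than 2.65 times what free RNA could give in the library where it was weakest. Of the granule genes, Elane differed by 0.38 on this scale, so not all were lower. Of the receptors, Cxcr2 differed by -0.08 and Csf3r by 0.18, while Tlr4, also among the 15 ranked highest, differed by 1.08. Tlr4 was sparse, with 3 to 48 UMIs per library in the gated cells and none in the S100-rich cells of 3 libraries, so its difference depends on the pseudocount of 10. The S100-rich group was small outside sham replicate 1, with 36 to 187 cells per injured library. The share of S100a8 and S100a9 that divides the groups is the gate's own limit, but other rules differed too. The gate's upper limit of UMIs did not apply to S100-rich cells. Their median depth was higher than that of gated cells in all 7 libraries, at 3128.5 against 1585 UMIs in sham replicate 1. The floor for G0s2, Cxcl2 and Il1b is part of the gate and not of the definition given for S100-rich cells. The part of each rule in these differences was not tested.

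**Figure D2:**
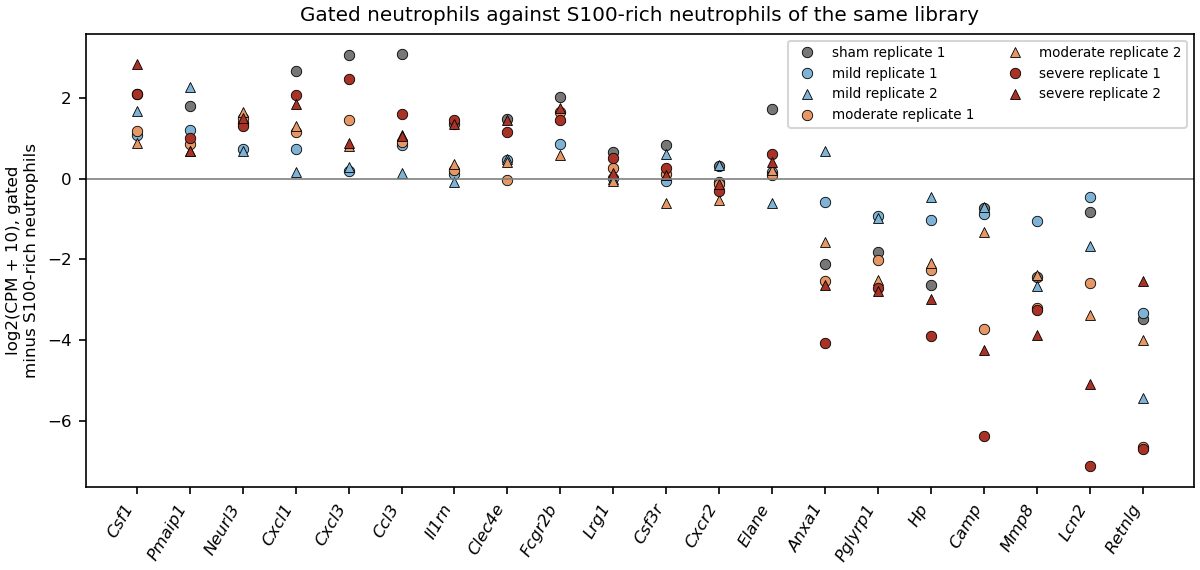
Difference in log2(CPM + 10) between gated neutrophils and S100-rich neutrophils of the same library for 20 genes; each point is 1 library, coloured by group, circles for replicate 1 and triangles for replicate 2. Csf1, Pmaip1 and Neurl3 lie above 0 in all 7 libraries, and Pglyrp1, Hp, Camp, Mmp8, Lcn2 and Retnlg below 0 in all 7.

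The gated cells were also graded within the gate. In the 6 injured libraries, Mmp8 averaged 78.6 CPM ± 71.3 (SD, n = 6) in cells with less than 1% of UMIs on S100a8 and S100a9 and 272 CPM ± 106 in cells with 8% to 12%. Camp went from 108 CPM ± 57.4 to 258 CPM ± 97.2 between the same bins. In the opposite order, Cxcl1 went from 5173 CPM ± 5260 to 3309 CPM ± 2553, and its bins overlapped widely. At the edges of the gate, cells of all libraries were pooled, sham replicate 1 included. The values there have no spread, and the mix of libraries may differ between the sides. The 146 cells with exactly 5 UMIs of G0s2, Cxcl2 and Il1b held 10209 CPM of Ccl6 and Lrg1 together, and the 127 cells with 4 such UMIs held 8673 CPM. The 299 cells with 10% to 12% of UMIs on S100a8 and S100a9 held 12173 CPM of that pair and the 248 cells with 12% to 14% held 11101 CPM. At the floor of 3 UMIs of S100a8 and S100a9, the 156 cells just inside held 10186 CPM of the pair. The 216 cells just outside that floor held 9434 CPM. Macrophage markers summed to 11217 CPM inside and 12515 CPM outside, so this edge separated the cells little. The 57 cells with 3 UMIs of C1q genes held 11329 CPM of the macrophage markers and the 20 cells with 4 held 17281 CPM. Ccl6 and Lrg1 together were at 10531 CPM in the former and 10000 CPM in the latter.

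The main question of the design was how these cells differ with the force of the impact. In severe against mild SCI, the chemokines Cxcl1, Cxcl3 and Ccl3, the receptor antagonist Il1rn, the survival genes Birc3, Bcl2a1 and Cflar and the lectin receptor Clec4e were higher, and Fos, Atf3, Oas1a and Pglyrp1 were lower. Most tested members of the lists that hold these genes did not pass, as counted below for each list. Of 4626 genes tested outside the gate with edgeR's quasi-likelihood test, 151 rose (3.26%) and 69 fell (1.49%) at a Benjamini-Hochberg adjusted p below 0.05. With scaling by library size alone 105 rose and 170 fell, because the median of all genes moved from -0.03 to -0.35 on the log2 scale; 169 of the 220 genes were called again and 0 changed sign. The count rests on both mild libraries: 0 genes passed without mild replicate 1 and 0 without mild replicate 2, while 91 passed without severe replicate 1 and 603 without severe replicate 2. Of the 220 genes, 146 lay over 3 times the level of free RNA in each injured library.

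Depth per cell moved with these groups. Severe and mild cells were therefore also compared within narrower ranges of UMIs per cell, by limits chosen after seeing the data, and depth within a range was not matched. Among cells of 1000 to 2500 UMIs, with 257 and 21 mild and 473 and 340 severe cells, 22 genes rose and 12 fell, and 30 of them were among the 220, with 0 of the 192 retested genes changing sign. There Cxcl1 differed by 3.96, Clec4e by 3.07, Traf1 by 2.98 and Cflar by 3.54 on the log2 scale, each past the test, while Ccl3 (2.96, edgeR adjusted p = 0.103), Il1rn (2.04, edgeR adjusted p = 0.0832), Birc3 (2.82, edgeR adjusted p = 0.0991) and Bcl2a1 (2.09, edgeR adjusted p = 0.185) did not pass. Among cells of 500 to 1000 UMIs, with 29 and 14 severe cells left, 5 genes passed, 3 of which were among the 220. There Fos differed by -3.87 (edgeR adjusted p = 0.00536) and Cxcl1 by 1.77 (edgeR adjusted p = 0.142). Of the 167 retested genes 4 had the opposite sign. Of the 6 genes of the NF-kB feedback list given below, only Traf1 passed at 1000 to 2500 UMIs, where Tnfaip3 (2.12, edgeR adjusted p = 0.148), Nfkb2 (1.85, edgeR adjusted p = 0.172) and Tnfaip2 (1.79, edgeR adjusted p = 0.204) did not and Tnf was not tested. At 500 to 1000 UMIs only Nfkb2 (2.81, edgeR adjusted p = 0.189), Tnfaip3 (1.68, edgeR adjusted p = 0.666) and Traf1 (1.85, edgeR adjusted p = 0.367) of the 6 were tested, and none of these passed. Among the called genes of all lists, Fos passed in both ranges, and Cxcl1, Clec4e, Cflar and Traf1 passed at 1000 to 2500 UMIs. The others, Ccl3, Il1rn, Bcl2a1, Cxcl3, Oas1a and Pglyrp1 among them, passed in neither range or were not tested there. At 500 to 1000 UMIs Ccl3 differed by 1.56 (edgeR adjusted p = 0.286) and Il1rn by 1.52 (edgeR adjusted p = 0.208). Bcl2a1 differed by 1.23 in that range (edgeR adjusted p = 0.294), and Birc3 was not tested in it. Cxcl3 differed by 1.20 at 500 to 1000 UMIs (edgeR adjusted p = 0.366) and by 4.06 at 1000 to 2500 UMIs (edgeR adjusted p = 0.0768). Oas1a differed by -2.72 (edgeR adjusted p = 0.0593) and -0.91 (edgeR adjusted p = 0.359) in the same ranges, and Pglyrp1 by -2.84 (edgeR adjusted p = 0.0645) and -1.16 (edgeR adjusted p = 0.318). Atf3 belongs to none of the lists, and its values in these ranges are not given here.

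Of the chemokine list, 3 of 8 tested genes rose and 0 fell, with a list median log2 fold change of 1.46 beside -0.03 for all genes. Cxcl1, like Cxcl2 a ligand of Cxcr2, was at 1502 and 1325 CPM in the mild and 11891 and 7875 CPM in the severe libraries, with moderate between at 1963 and 2718 CPM. Its log2 fold change was 3.15 ± 0.42 (SE; edgeR adjusted p = 0.00935). Cxcl3, a further ligand of that receptor, was at 350 and 431 CPM in the mild and 4568 and 1802 CPM in the severe libraries (3.41 ± 0.66, edgeR adjusted p = 0.0253). Ccl3 was at 3348 and 2775 CPM in the mild, 9021 and 22297 CPM in the moderate, and 16930 and 16361 CPM in the severe libraries (2.77 ± 0.50, edgeR adjusted p = 0.0252). All 3 were higher in both severe than in both mild libraries. Ccl2, which draws monocytes, had values of 1654 and 1339 CPM in mild and 6944 and 3840 CPM in severe SCI and did not pass (edgeR adjusted p = 0.15); its highest value was 15681 CPM in moderate replicate 2.

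Of the interleukin 1 list, 1 of 9 tested genes rose and 0 fell (median log2 fold change -0.47). The gene was Il1rn, at 611 and 635 CPM in the mild and 2105 and 1564 CPM in the severe libraries (1.90 ± 0.37, edgeR adjusted p = 0.0253). The decoy receptor Il1r2 was at 990 and 1404 CPM in mild and 795 and 497 CPM in severe SCI and did not pass (edgeR adjusted p = 0.50). Nlrp3, a sensor that activates interleukin 1 processing, was at 396 and 468 CPM in mild and 827 and 721 CPM in severe SCI and did not pass (edgeR adjusted p = 0.11).

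Of the NF-kB feedback list, 6 of 18 tested genes rose and 0 fell (median log2 fold change 1.5). Birc3, an inhibitor of apoptosis, was at 25.1 and 32.4 CPM in mild and 218 and 79.3 CPM in severe SCI (2.81 ± 0.56, edgeR adjusted p = 0.0268). Traf1, an adaptor of tumour necrosis factor receptors, was at 38.6 and 60.2 CPM and 276 and 159 CPM (2.58 ± 0.60, edgeR adjusted p = 0.0422). Tnfaip3, the A20 enzyme that ends NF-kB signalling, was at 17.4 and 23.2 CPM and 72.3 and 109 CPM (2.54 ± 0.59, edgeR adjusted p = 0.0425), with 2.68 times the level of free RNA in the library where it was weakest. Nfkb2 and Tnfaip2 also rose, by 2.24 and 1.96. Tnf itself was sparse: it had 0 UMIs in the mild cells, 2 in the moderate and 42 in the severe, and the severe level was at least 12.9-fold higher than 3 UMIs over the mild group. Nfkbia, the most abundant member, was at 6702 and 6133 CPM in mild and 12690 and 12650 CPM in severe SCI and did not pass (edgeR adjusted p = 0.094).

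**Figure D3:**
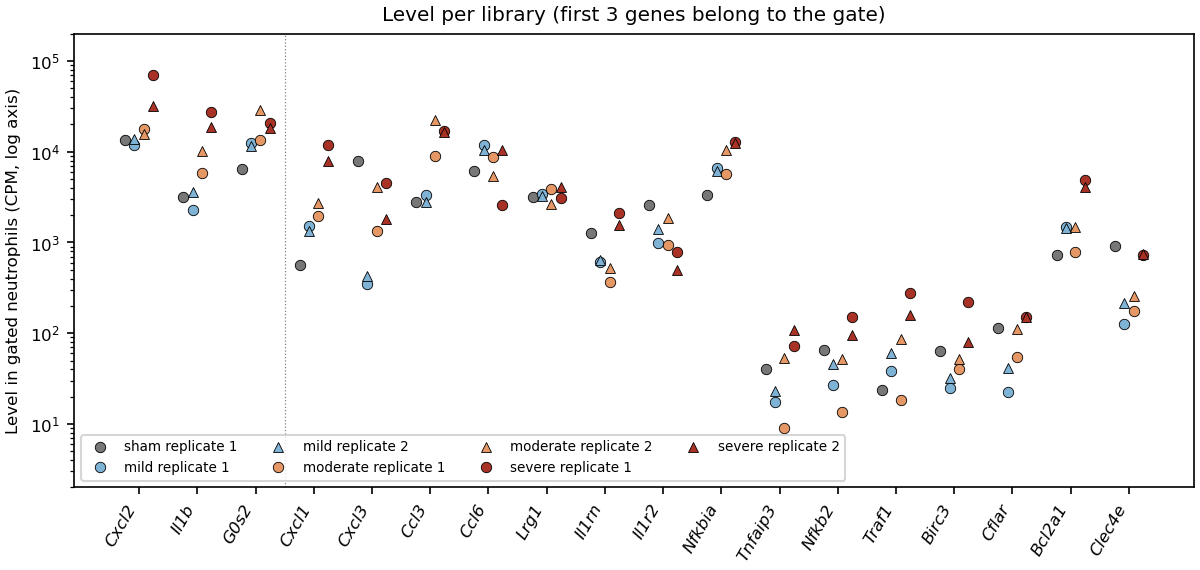
Level of 18 genes in the gated neutrophils of each library, in CPM on a log axis; circles are replicate 1 and triangles replicate 2, coloured by group, and the first 3 genes belong to the gate. Outside the gate, Cxcl1, Cxcl3, Ccl3, Il1rn, Tnfaip3, Nfkb2, Traf1, Birc3, Cflar, Bcl2a1 and Clec4e lie higher in both severe than in both mild libraries. So does Nfkbia, which did not pass the test. A called gene tends to be separated in this way, so the separation adds no support beyond the test. Its share over all genes is not given here.

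Of the apoptosis and survival list, 4 of 20 tested genes rose and 0 fell (median log2 fold change 0.63). Besides Birc3 these were Bcl2a1, an anti-apoptotic protein of granulocytes, at 1474 and 1427 CPM in mild and 4834 and 4066 CPM in severe SCI (1.95 ± 0.41, edgeR adjusted p = 0.0323), Cflar, which blocks caspase 8, at 22.2 and 41.7 CPM and 150 and 150 CPM (2.72 ± 0.48, edgeR adjusted p = 0.0241), and Gadd45b, which rose by 2.12. Pmaip1 of the opposite action was at 154 and 144 CPM in mild and 351 and 317 CPM in severe SCI and did not pass (edgeR adjusted p = 0.062). Of the pattern recognition list, 2 of 13 rose and 0 fell (median 0.78). Clec4e was at 127 and 218 CPM in mild and 728 and 750 CPM in severe SCI (2.47 ± 0.39, edgeR adjusted p = 0.0135), and Clec4d rose by 1.97. Of the chemoattractant receptors, 1 of 13 rose, Ccr3, by 1.90 from 16.4 and 18.5 CPM to 46.9 and 56.4 CPM. Cxcr2 was at 121 and 139 CPM in mild and 78.6 and 82.8 CPM in severe SCI and did not pass (edgeR adjusted p = 0.56).

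Of the granule list, 1 of 10 tested genes rose and 1 fell (median log2 fold change -0.09). Lyz2 was at 8801 and 6939 CPM in mild and 15038 and 26749 CPM in severe SCI (1.70 ± 0.41, edgeR adjusted p = 0.0447), and Pglyrp1 fell from 629 and 723 CPM to 113 and 211 CPM (-1.76 ± 0.34, edgeR adjusted p = 0.0253). Like Pglyrp1, Lyz2 did not pass at 500 to 1000 UMIs (1.23, edgeR adjusted p = 0.309) or at 1000 to 2500 UMIs (1.60, edgeR adjusted p = 0.241). Of the interferon list, 0 of 17 rose and 3 fell, Ifitm2, Oas1a and Mx2 (list median 0.21). Oas1a, a sensor of double-stranded RNA, was at 982 and 1292 CPM in mild and 259 and 393 CPM in severe SCI (-1.49 ± 0.32, edgeR adjusted p = 0.0328). Mx2 had 53 UMIs in mild cells and 0 UMIs in both other injured groups, and the severe level was at least 19.2-fold lower than the mild. Isg15, another interferon-induced gene, was at 207 and 375 CPM in mild and 563 and 604 CPM in severe SCI and did not pass (edgeR adjusted p = 0.051). Of the list of iron, heme and antioxidant genes, 2 of 18 rose (median 0.17): Ftl1, at 3138 and 2826 CPM in mild and 21619 and 15177 CPM in severe SCI (2.97 ± 0.45, edgeR adjusted p = 0.0124), and Slc7a11, the cystine carrier, by 2.58. Ftl1 did not pass at 500 to 1000 UMIs (2.68, edgeR adjusted p = 0.0538) or at 1000 to 2500 UMIs (2.51, edgeR adjusted p = 0.111). Slc7a11 was tested only at 1000 to 2500 UMIs and did not pass there (3.13, edgeR adjusted p = 0.135). Fth1, the partner of Ftl1 in ferritin, was at 30897 and 33675 CPM and 23072 and 23878 CPM and did not pass (edgeR adjusted p = 0.86).

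Of the maturation and ageing list, 0 of 18 rose and 1 fell. The gene was Fos, at 3900 and 4739 CPM in the mild and 295 and 678 CPM in the severe libraries (-2.86 ± 0.44, edgeR adjusted p = 0.0124), and Atf3, a stress factor of the same family of dimers, fell from 520 and 806 CPM to 63.4 and 77.5 CPM (-2.90 ± 0.42, edgeR adjusted p = 0.0112). Cxcr4, a receptor of aged neutrophils, was at 415 and 371 CPM and 285 and 437 CPM, and its groups overlapped. Of the list of hypoxia and glycolysis 2 of 23 rose, Pkm and Tpi1, with Tpi1 at only 2.56 times free RNA where it was weakest, and Vegfa was at 283 and 269 CPM in mild and 1018 and 217 CPM in severe SCI (edgeR adjusted p = 0.16). Of 25 autophagy genes, a process the study followed in immune cells, 23 were tested, 2 rose and 0 fell (median 0.20). These were the chaperones Hspa5, at 326 and 324 CPM in mild and 879 and 810 CPM in severe SCI (1.71 ± 0.37, edgeR adjusted p = 0.0348), and Hspa8, at 478 and 505 CPM and 2337 and 935 CPM (2.11 ± 0.50, edgeR adjusted p = 0.0447), which was 2.41 times free RNA where it was weakest. Neither chaperone passed at 500 to 1000 UMIs, with Hspa5 at 1.94 (edgeR adjusted p = 0.0765) and Hspa8 at 1.98 (edgeR adjusted p = 0.158). Neither passed at 1000 to 2500 UMIs, with Hspa5 at 1.51 (edgeR adjusted p = 0.218) and Hspa8 at 1.84 (edgeR adjusted p = 0.139). Ctsb, a lysosomal protease, was at 945 and 1357 CPM and 1034 and 920 CPM, with overlap. Of the lists of the NADPH oxidase (6 tested), of lipid droplets and eicosanoids (12), of adhesion and migration (20) and of repair and immunoregulation (11), 0 genes passed in either direction.

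**Figure D4:**
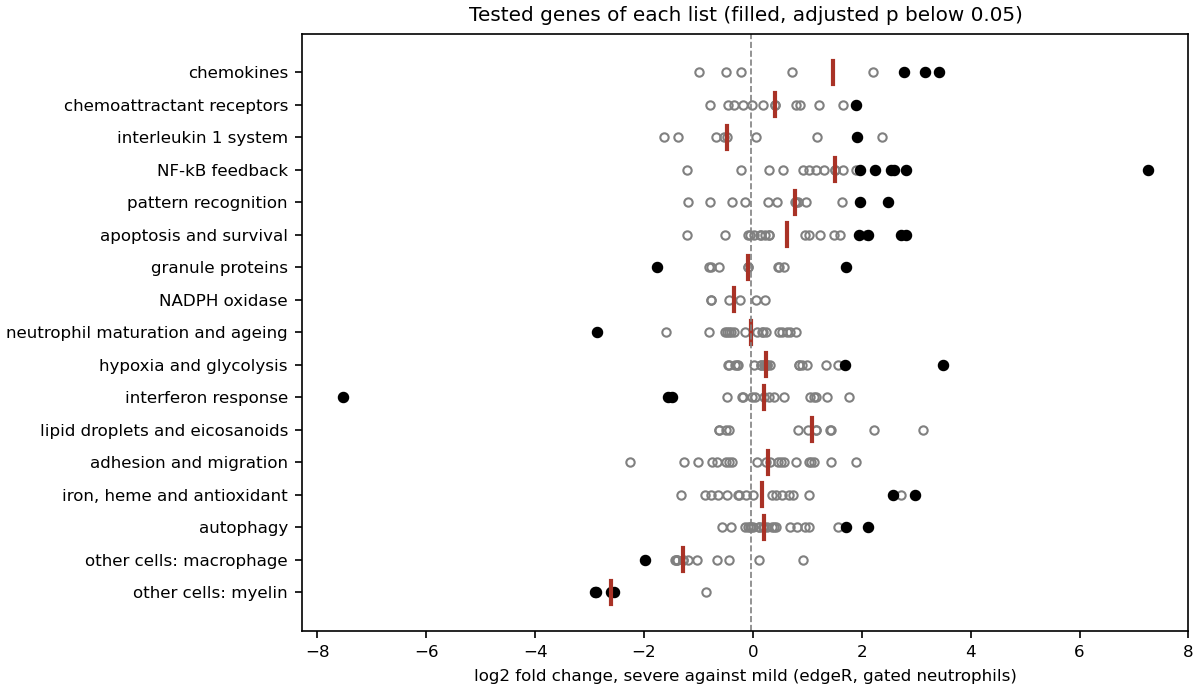
Log2 fold change of severe against mild SCI in gated neutrophils for the tested genes of 17 lists; open circles did not pass and filled circles passed at an adjusted p below 0.05, red bars mark the list medians, and the dashed line marks the median of all genes, -0.03. The medians of the chemokine and NF-kB feedback lists lie near 1.5, those of the macrophage and myelin markers at -1.28 and -2.61.

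Among the 112 genes that rose with both severe above both mild libraries at a mean of at least 50 CPM, the 10 largest were led by the haemoglobin gene Hba-a2, listed under 2 identifiers, and a gene with a LOC name. These 3 reached 278 to 1064 CPM in severe replicate 2, 21.6 to 40.6 CPM in severe replicate 1 and at most 13.9 CPM in the mild libraries, and so move with the erythroid markers. The others were Hes1, a target of Notch signalling, at 15.5 and 23.2 CPM in mild and 259 and 204 CPM in severe SCI (4.03 ± 0.55, edgeR adjusted p = 0.00935), Il23a, a subunit of interleukin 23 (3.77), the heat shock gene Hspa1b (3.73, at 0.534 times free RNA where it was weakest), the cell cycle subunit Cks2 (3.73, at 1.99 times free RNA), Rps19 (at 1.79 times free RNA) and 2 genes without a settled name. Of the 34 that fell in the same manner, the 10 largest included, besides Fos and Atf3, the myelin gene Cnp, the glycosyltransferase B3gnt2 (-2.51), Oas1k (-2.15), Tuba1a and Rps10. At its weakest Oas1k was at 68.8 times the level of free RNA, while Cnp was at 0.966, Tuba1a at 0.542, Rps10 at 1.17 and B3gnt2 at 2.39 times that level, which was itself lower in the severe libraries. Ribosomal, LOC and clone-type names made up 46 of the 220 calls; such genes can share reads with near-identical copies, and their values are uncertain.

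Moderate against mild SCI differed in fewer genes, with 14 higher (0.303%) and 0 lower (0%). At an unadjusted p below 0.05, 458 were higher and 292 lower, and DESeq2 called 66 higher and 11 lower. Jun, a partner of Fos, was at 549 and 686 CPM in the mild and 3590 and 5488 CPM in the moderate libraries (3.04 ± 0.39, edgeR adjusted p = 0.0185). Retn, which encodes resistin, was at 37.7 and 37.1 CPM and 299 and 371 CPM (3.29 ± 0.38, edgeR adjusted p = 0.0183), and its lowest level was 194 times that of free RNA. Hes1 rose by 4.26, the small GTPase Rhob by 3.86, Tagap by 3.66, the chaperone cofactor Dnajb9 by 2.74, Rsrp1 by 2.63 and Hspa1b by 5.30. Hspa1b lay below the level of free RNA in 1 library. Of all lists, 1 gene passed, Jun of the maturation list. Without mild replicate 1, mild replicate 2 or moderate replicate 2, 0 genes passed, while 118 passed without moderate replicate 1, 152 without severe replicate 1 and 164 without severe replicate 2. Among cells of 500 to 1000 UMIs, where the mild libraries held 956 and 273 gated cells and the moderate 322 and 301, 75 genes were higher and 13 lower, and 13 of the 14 genes were tested and all 13 called again. Among cells of 1000 to 2500 UMIs 0 passed, with 21 cells left in mild replicate 2 and 12 in moderate replicate 1. With scaling by library size alone 39 were higher and 6 lower.

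Severe against moderate SCI gave 16 higher (0.346%) and 27 lower genes (0.584%), or 28 and 73 with scaling by library size alone. Fos was at 5304 and 2554 CPM in the moderate and 295 and 678 CPM in the severe libraries (-2.81 ± 0.44, edgeR adjusted p = 0.0146), Jun fell by 2.95, Fosb by 4.13 and Atf3 by 4.63. Retn fell by 4.29 on the log2 scale, to 11.4 and 19.4 CPM, and was at 2.89 CPM in sham replicate 1. Cxcl1 was higher by 2.28 ± 0.41 (edgeR adjusted p = 0.0304), Il1rn by 2.23 ± 0.38 (edgeR adjusted p = 0.0221), Clec4e by 1.93 and Bcl2a1 by 2.14. Tuba1c, a tubulin, rose by 2.55, Grcc10 by 2.57 and Zbed5 by 2.30, and 5 of the 10 largest rises had LOC, pseudogene or ribosomal names. Of the macrophage markers, 4 of 13 tested fell, Apoe, Spp1, Cd68 and Lgmn. Apoe was at 6646 and 10050 CPM in the moderate and 670 and 1256 CPM in the severe libraries, and at its weakest 0.459 times the level of free RNA. Fabp4, Scd2 and Id2 fell by 4.31, 3.09 and 3.10, and of these Fabp4 and Scd2 lay below 3 times free RNA in a library. Of the 43 genes, 21 lay over 3 times that level in each injured library. Of the 43, 11 were called again with only these 2 groups in the fit, 21 among cells of 1000 to 2500 UMIs and 8 among cells of 500 to 1000 UMIs, where 1 had the opposite sign. The count was 24 without mild replicate 2, 70 without severe replicate 1 and 227 without severe replicate 2.

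As a trend per doubling of the drop height, 40 genes were higher (0.865%) and 14 lower (0.303%), or 28 and 32 with scaling by library size alone. Cxcl1 rose by 1.58 ± 0.24 per doubling (edgeR adjusted p = 0.023), Ftl1 by 1.49 ± 0.23, Birc3 by 1.43 ± 0.28, Gch1, the first enzyme of tetrahydrobiopterin synthesis, by 1.38 ± 0.20, Cflar by 1.31 ± 0.26 and Clec4e by 1.24 ± 0.22. Ftl1 rose in order of the groups, at 3138 and 2826, 5984 and 10230, and 21619 and 15177 CPM, as Gch1 did, at 89.8 and 92.6, 150 and 190, and 558 and 398 CPM. B3gnt2, which lay below 3 times free RNA in a library, Oas1k and Arhgap45 fell by 1.29, 1.07 and 0.80 per doubling. Arhgap45 was at 375 and 468 CPM in the mild, 245 and 223 CPM in the moderate and 101 and 118 CPM in the severe libraries. The trend rests on each mild library, without which 0 genes passed, and on severe replicate 1, without which 8 passed; it was 34 without moderate replicate 1, 265 without moderate replicate 2 and 112 without severe replicate 2. Among cells of 1000 to 2500 UMIs 0 genes passed for the trend, and among cells of 500 to 1000 UMIs 1 passed.

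The gated cells of sham replicate 1 did not sit at the low end of every gene. Cxcl1, at 561 CPM, was lower than in any injured library, and Cxcl3, at 7816 CPM, was higher than in any. Clec4e at 921 CPM, Clec4d at 1399 CPM, Il1r2 at 2563 CPM, Cxcr2 at 392 CPM and Mmp8 at 669 CPM were also above all 6 injured libraries. Cebpe, a transcription factor of granule formation, was at 10.6 CPM and at 63.3 to 306 CPM in the injured libraries. Hspa1b was at 7821 CPM, against at most 260 CPM elsewhere. With 1 sham library these differences have no replicate check.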

How the data were processed

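Single-cell transcriptomes of 8 libraries were read as the UMI counts per gene and cell that the authors deposited, made with Cell Ranger 5.0.1 per the file headers (the supplementary methods name 6.0.1) on Rnor_6.0, without later normalization. The deposited barcodes held 3069 to 12674 cells and at least 500 UMIs each. The gated cells, and all gene lists and limits, were chosen with earlier results of these data known. Counts of gated cells were summed per library, scaled by TMM and tested with edgeR 4.0.16 (quasi-likelihood, filterByExpr) as a trend with log2 drop height and as contrasts of the injured groups in 1 fit. Benjamini-Hochberg adjustment covered all 4646 genes that passed the filter, those of the gate included. Calls were then counted over the 4626 genes outside the gate. Genes were named by rank of fold change among called genes of at least 50 CPM without overlap of the groups, by membership of 29 lists, and by level. The level that free RNA could give a gene was its whole-library level scaled by the median ratio of genes that neutrophils should lack. No doublet caller was run. The limit of 2500 UMIs can still hold pairs of shallow cells, as median depth was 620 to 902 UMIs in the mild and moderate libraries. Leaving out droplets with 3 UMIs of another cell type's markers was an alternative. Intervals (Wilson, 95%) cover counting error only. Alternatives were DESeq2 1.42.0, other scaling, no filter, a replicate block, each library left out and other gate limits. The fit was also run on simulated counts with known fold changes, but the outcome is not given here and no result rests on it. No Rnor_6.0 genome was used here, and coordinates are those of the RefSeq promoters on GRCr8. Some genes are not reported here.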

Additional observations from a re-analysis of the deposited data

How the results depend on the processing

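Counts of called genes moved with most settings, given here in the order trend, moderate against mild, severe against mild and severe against moderate, where the edgeR fit called 54, 14, 220 and 43. DESeq2 called 151, 77, 179 and 99; library size alone 60, 45, 275 and 101; no filter on low counts 323, 165, 498 and 243. Without genes near the level of free RNA the counts were 24, 30, 175 and 31. The gate at 400 to 5000 UMIs gave 146, 12, 456 and 55, C1q at 0 UMIs 35, 8, 127 and 45, 500 to 1000 UMIs 1, 88, 5 and 10, and 1000 to 2500 UMIs 0, 0, 34 and 24, the last 2 chosen after seeing the data. With only the groups compared in the fit, the contrasts gave 62, 250 and 12. Leaving out each library in turn gave 0 to 265, 0 to 164, 0 to 603 and 24 to 227; where an arm kept 1 library, it was assumed to vary like the others. With the replicate number as a block (replicate block) the counts were 18, 2, 45 and 27; deviations of same-numbered libraries correlated at 0.0362 for mild with moderate, 0.0697 for mild with severe and -0.198 for moderate with severe, so the numbers are not taken to pair the libraries. No gene called was of opposite sign in these settings except 4 of severe against mild and 1 of severe against moderate at 500 to 1000 UMIs. The gate held 2178 cells at 500 to 1000 UMIs and 2315 at 1000 to 2500 UMIs. The share of gated cells passed no test under any setting: injured minus sham was -0.651 points at 400 to 5000 UMIs, -0.0685 with S100a8 and S100a9 below 20%, -2.03 at 1000 to 2500 UMIs, and -5.61 to 6.88 with each library left out. It was 3.47 points at a mitochondrial limit of 5% and 5.30 points (exact permutation p = 0.107) without cells that carried other cell types' markers, most of which came from sham replicate 1, and there rho against drop height was 0.586 and r 0.404. Against drop height, r was -0.0105 at 400 to 5000 UMIs, -0.0344 at a mitochondrial limit of 5% and -0.299 at 500 to 1000 UMIs, rho was -0.146 at that limit and -0.0488 at 500 to 1000 UMIs, and with each library left out rho ran from -0.330 to 0.385 and r from -0.230 to 0.343. The cause of these changes was not tested. Mild replicate 2 and moderate replicate 1, with 215888 and 220596 UMIs, limit what low genes can show.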

Other observations

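Genes outside the lists, chosen after their values were seen, also differed between severe and mild SCI. Their values in the narrower ranges of depth and their multiples of free RNA are not given here. Of the 220 genes called in this contrast, 3 of 167 retested were called again at 500 to 1000 UMIs. At 1000 to 2500 UMIs, 30 of 192 were. Ddit3, a transcription factor of the unfolded protein response, was at 261 and 255 CPM in the mild, 947 and 1210 CPM in the moderate and 970 and 1157 CPM in the severe libraries, and the difference of severe from mild was 2.36 ± 0.33 on the log2 scale (SE, edgeR adjusted p = 0.0106). Its partner Atf4 was at 300 and 375 CPM in the mild and 1209 and 787 CPM in the severe libraries, a difference of 1.92. Cdkn1a, an inhibitor of the cell cycle, was higher by 1.79 and Olr1, a receptor of oxidised lipoprotein, by 2.18. Nr4a1, an immediate early nuclear receptor, was lower at 164 and 152 CPM against 767 and 472 CPM, and Serpinb1a, an inhibitor of neutrophil elastase, was lower at 227 and 130 CPM against 766 and 1010 CPM.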
